A study of Rattus norvegicus with 6 samples.

Results

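The comparison described here is the effect of the Syk inhibitor R406 during stimulation by curdlan: R406-pretreated, curdlan-stimulated cells were set against cells given curdlan alone, over all 29214 probe sets of the table. Its members were chosen by the sample labels, and they are 4 of the 6 arrays of the study, 2 per group. All 6 arrays came from RBL-2H3, a single rat basophilic leukaemia line used as a model of mast cells, and in every group, the unstimulated control cells included, the line overexpressed Dectin-1 WT. The control cells (2 arrays) were stimulated with nothing, the second group (2 arrays) with curdlan, and the last group (2 arrays) received R406 before curdlan. The sources used here do not give doses, times or the vehicle. Cells given R406 without curdlan were not analysed here, so a blocked response to curdlan and an effect of R406 on resting cells cannot be told apart. Nor do they give the promoter that drives the receptor or the number of clones.

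Dectin-1, encoded by Clec7a, is a receptor of innate immune cells for beta-glucans of fungal cell walls, and curdlan is a particulate bacterial beta-glucan that binds it. On binding, Src family kinases phosphorylate a tyrosine motif in the receptor's tail, the kinase Syk docks there, and phospholipase C, calcium, MAP kinase and NF-kB pathways follow. Mast cells use the same kinase below their IgE receptor, and respond with granule release, lipid mediators and new synthesis of cytokines. R406 is the active form of the drug fostamatinib and blocks the ATP site of Syk, and it is also known to act on other kinases.

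Signals are log2 values that the authors had normalized, and a change is the mean of the R406 plus curdlan arrays minus the mean of the curdlan arrays, given with its standard error (SE) from a limma fit of all 6 arrays. Probe sets with an adjusted p below 0.05 (limma, Benjamini-Hochberg, over the whole table) are called higher or lower, and all adjusted p-values below are of this kind. They measure the spread between the 2 arrays of a group, which may be technical, since the labels do not say that these came from separate cultures. The array medians lay between 7.20 and 7.24. Of 17 measured mast cell markers, 11 lay above the 90th percentile of all probe sets, among them Ms4a2, Cpa3, Kit and Fcer1a, and 1 was called (Tph1, lower with R406). The tryptase genes Tpsab1 and Tpsb2 and the called Tph1 lay lower, at percentiles 28.9, 31.6 and 39.8. None of 12 macrophage and neutrophil, 7 lymphocyte and 11 fibroblast and epithelial markers lay above the 90th percentile, and 0 of them were called. Above the median of all probe sets lay 1, 1 and 5 of them, with Pecam1 of the last group at percentile 82.6. In longer lists, Cx3cr1 was higher and Itgam and Ltf lower of 28 macrophage and neutrophil genes (3.57% higher and 7.14% lower). Of 24 lymphocyte genes, Cd7 was higher and Cd28 lower (4.17% each way). Over all named genes 5.17% were higher and 4.01% lower. Some genes of these longer lists were bright: Nkg7 lay at percentile 99.5, and Thy1, Cd7 and Itgam at 83.6, 82.4 and 80.9. In a longer list of 25 fibroblast and epithelial genes 0 were called, and Acta2 lay at percentile 84.4. The probe set of Clec7a read 7.21 and 7.23 in curdlan and 7.15 and 7.10 in R406 plus curdlan, close to the array median. Whether it reads the introduced receptor is not known here. Syk itself read 9.01 and 9.03 in curdlan and 9.09 and 9.09 with R406 (change 0.07 ± 0.0452, adjusted p = 0.446).

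With R406, 27 of 51 early transcription factor genes, 13 of 60 interleukin and growth factor genes and 14 of 33 genes of MAP kinase feedback and regulation were lower, by up to 5.51 log2 units (Il3). In the other direction, 27 of 61 FOXO targets and quiescence genes were higher, by up to 2.77 (Bcl6), and 4 were lower. The lists were chosen with earlier results of these data known, so counts over lists, here and below, are description only. In all, 2118 probe sets were called (7.25% of those tested), 945 lower (3.23%) and 1173 higher (4.02%). Counted as 1 probe set for each of 14506 named genes, 1332 were called (9.18%), 582 lower (4.01%) and 750 higher (5.17%). The last 2 shares are the background for the list counts given here and below. This background was not matched for signal. The median signal was 7.83 over all named genes and from 6.25 (lymphocyte markers) to 13.19 (ribosomal proteins) over the lists. In curdlan it was 10.15 over the lowered and 9.15 over the raised probe sets. How far the list shares follow signal was not tested. The lowered side held the larger changes: 68 named genes were lower at least 2-fold against 33 higher, and 27 probe sets were lower at least 4-fold against 6 higher. Most of the called changes were small, with a median size of 0.47 log2 units among the lowered and 0.42 among the raised probe sets. No called probe set had overlapping arrays, although non-overlap alone was common, at 27.7% of all probe sets with R406 above curdlan and 25.6% below (30.5% and 27.5% of named genes). The count of called probe sets fell to 231 without R406 plus curdlan replicate 1, 210 without replicate 2 of that group, 532 and 599 when curdlan replicate 1 or 2 was omitted, and 1232 without either control array. In each of these 6 fits as well as in that of all arrays, 195 probe sets were called, 123 lower and 72 higher.

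**Figure D1:**
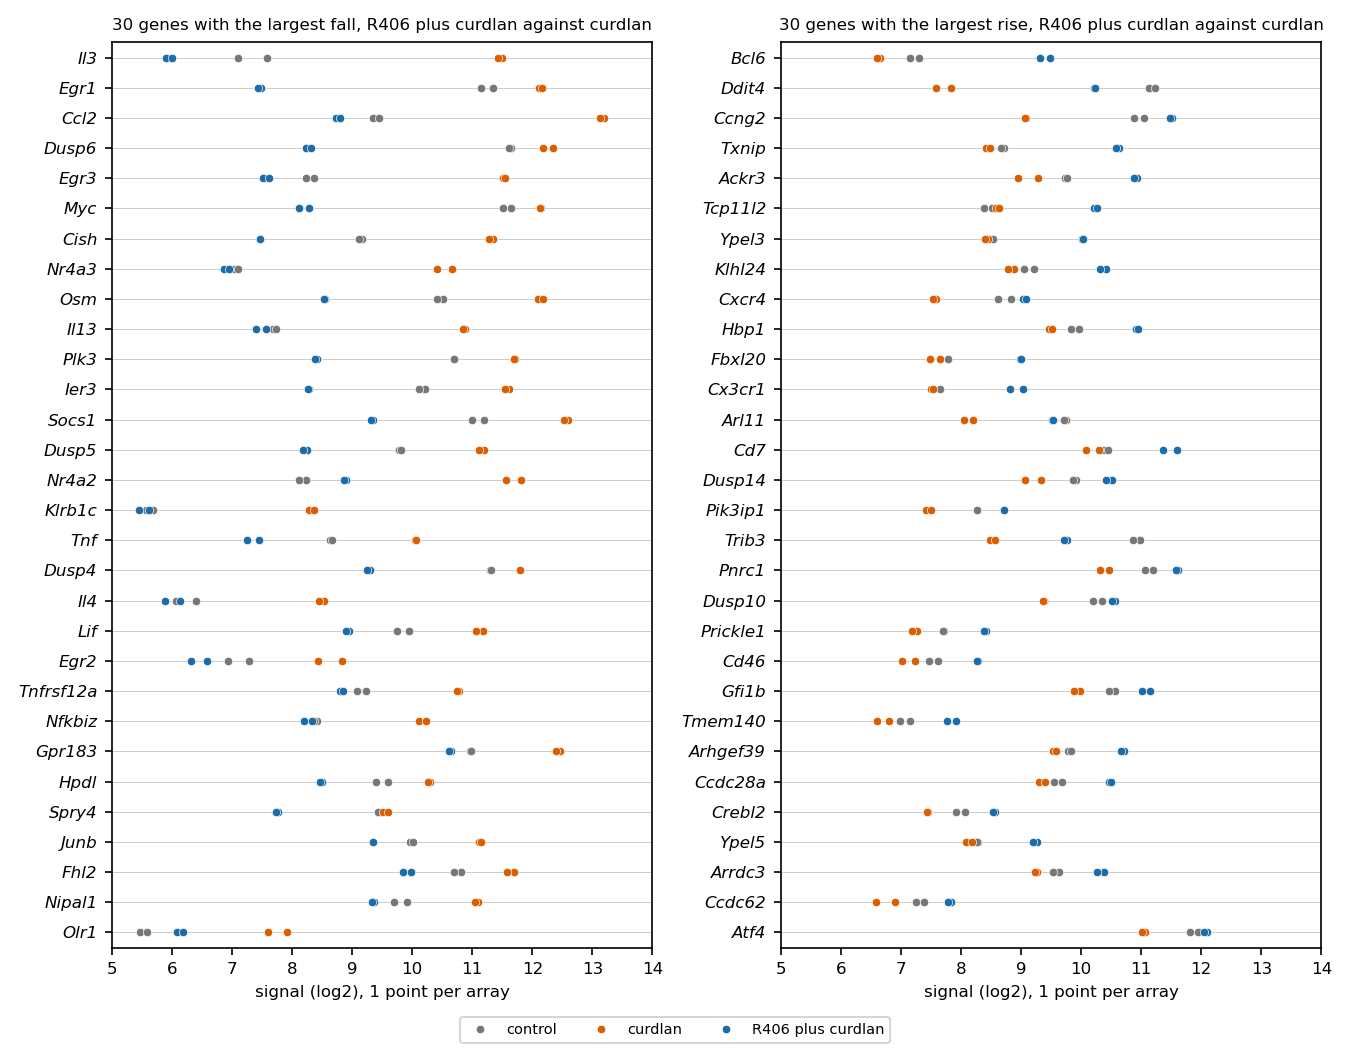
Log2 signal on each of the 6 arrays (grey, control; orange, curdlan; blue, R406 plus curdlan; 1 point per array) for the 30 genes with the largest fall and the 30 with the largest rise with R406. For each gene the blue and orange points lie apart, and for many of the lowered genes, such as Egr1, Dusp6 and Myc, the blue points also lie below the grey ones.

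Promoters of genes on both sides are shown first, because 2 short motifs stood in different shares of them. From RefSeq (assembly GRCr8), windows of 300 bases (250 before to 50 after the start) were matched for 50 of the 68 genes lowered at least 2-fold and 27 of the 33 raised at least 2-fold, and 27457 windows served as the background. Both strands were searched. The CArG box, the site of serum response factor, stood in 8 of the 50 lowered windows (16%), in 0 of the 27 raised ones and in 1.64% of all windows (1.28% of those of the 11951 named genes on the array). The 8 were Egr1, Dusp5, Egr2, Gpr183, Fhl2, Ppbp, Srf and Rtp3. Egr1, Dusp5 and Srf each held 2 boxes, those of Egr1 at -105 to -96 and -83 to -74 from the start. Part of 3 of these windows follows 5′ to 3′ on the strand of the gene, with the CArG boxes in capitals; the 2 boxes of Dusp5 adjoin.
Dusp5 (chr1:262543662-262543741, plus strand): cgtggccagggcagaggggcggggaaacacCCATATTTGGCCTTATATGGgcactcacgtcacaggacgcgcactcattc
Egr2 (chr20:21054485-21054554, minus strand): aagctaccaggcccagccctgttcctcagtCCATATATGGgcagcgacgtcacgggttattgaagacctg
Srf (chr9:21923965-21924054, plus strand): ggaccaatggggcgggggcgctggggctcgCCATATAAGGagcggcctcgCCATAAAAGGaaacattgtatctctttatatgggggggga

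On the raised side the forkhead motif GTAAACA, the site that FOXO and other forkhead factors bind, stood in 7 of 27 windows (25.9%), in 1 of the 50 lowered ones (2%, Junb), and in 3.76% of all windows (2.86% of those of named genes on the array). The 7 were Hbp1, Crebl2, Tmem140, Ccdc28a, Tor1aip2, Ypel3 and Pik3ip1. In Ypel3 and Pik3ip1 the match lay after the start. The other 4 that are shown have it upstream, in capitals, as GTAAACA or, in Tmem140, as its reverse complement.
Hbp1 (chr6:54283390-54283456, minus strand): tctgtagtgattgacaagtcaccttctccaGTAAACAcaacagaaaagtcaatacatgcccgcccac
Crebl2 (chr4:169404609-169404675, plus strand): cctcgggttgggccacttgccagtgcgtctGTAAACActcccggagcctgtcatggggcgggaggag
Tmem140 (chr4:64503435-64503501, plus strand): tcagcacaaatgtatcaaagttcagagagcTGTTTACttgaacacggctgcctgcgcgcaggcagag
Ccdc28a (chr1:14692493-14692559, minus strand): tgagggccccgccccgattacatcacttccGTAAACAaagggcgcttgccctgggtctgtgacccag

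The STAT motif TTCNNNGAA was less lopsided, in 8 of the 50 lowered (16%), 3 of the 27 raised (11.1%) and 8.68% of all windows. Cish, a feedback inhibitor of cytokine receptors that STAT5 induces, held 4 copies, shown in capitals.
Cish (chr8:116850719-116850888, plus strand): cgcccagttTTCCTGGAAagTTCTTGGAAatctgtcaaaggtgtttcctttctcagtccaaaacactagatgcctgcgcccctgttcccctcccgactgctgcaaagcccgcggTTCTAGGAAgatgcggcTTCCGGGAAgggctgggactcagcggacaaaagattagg
Of the other motifs searched, the cyclic AMP site TGACGTCA stood in 4% of lowered and 0 raised windows (1.91% of all), the AP-1 site (TGAGTCA or TGACTCA) in 6% and 3.7% (4.53% of all), the E-box CACGTG in 6% and 11.1% (6.65% of all), the kappa-B motif in 4% and 0 (4.16% of all), and the ATF4 motif TGATGNAAN in 0 and 11.1% (3.8% of all). These shares describe the letters in the windows and were not tested.

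The secreted proteins included the largest fall. Il3, a growth and survival factor of mast cells and basophils, read 11.49 and 11.43 in curdlan, 5.90 and 6.0 in R406 plus curdlan, and 7.58 and 7.10 in control (change -5.51 ± 0.156, adjusted p = 0.000346). Ccl2, a chemokine that draws monocytes, read 13.19 and 13.13 in curdlan, 8.73 and 8.80 with R406, and 9.34 and 9.44 in control (-4.39 ± 0.0613, adjusted p = 6.09e-05). In both genes the R406 arrays lay below the control arrays too, so the inhibited cells read lower than cells that never met curdlan. Osm, a cytokine of the IL-6 family, read 12.10 and 12.18 in curdlan, 8.55 and 8.54 with R406 and 10.52 and 10.42 in control (-3.60 ± 0.0574). Il13, a type 2 cytokine, read 10.88 and 10.84 in curdlan, 7.56 and 7.40 with R406 and 7.69 and 7.73 in control (-3.38 ± 0.0675). Tnf, an inflammatory cytokine, read 10.04 and 10.06 in curdlan, 7.25 and 7.45 with R406 and 8.63 and 8.67 in control (-2.70 ± 0.0763). Il13 thus returned to about its control signal, whereas Osm and Tnf lay below it on both R406 arrays. Il4, the other type 2 cytokine, read 8.53 and 8.45 in curdlan and 5.89 and 6.14 with R406, with the control arrays at 6.40 and 6.06 (-2.47 ± 0.14). Lif, a relative of Osm, read 11.18 and 11.06 in curdlan and 8.95 and 8.89 with R406, with control at 9.94 and 9.75 (-2.20 ± 0.0826). Csf1, the macrophage growth factor, had high signals in every group and read 13.12 and 13.21 in curdlan, 12.11 and 12.18 with R406 and 12.54 and 12.57 in control (-1.03 ± 0.0556). Of 60 measured interleukins and growth factors, 13 were called lower and 0 higher (median change -0.10, against 0.00 over all named genes), and 7 of the 13 stayed called whichever single array was left out.

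Among 33 chemokine genes, 4 were lower (12.1%, against 4.01% of all named genes) and 0 higher (median -0.06). Besides Ccl2 these were Ccl7, its close relative, at -1.59 ± 0.0981, the platelet basic protein gene Ppbp at -1.32 ± 0.0443 and the interferon-inducible Cxcl10 at -0.58 ± 0.0658. Ppbp was among the brightest genes called, at 13.39 and 13.37 in curdlan, 12.06 and 12.05 with R406 and 12.59 and 12.55 in control. The call of Cxcl10 ended without any 1 of the 4 curdlan or R406 plus curdlan arrays, and those of the other 3 chemokine genes held.

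The transcription factors that follow receptor stimulation within minutes to hours were lower in 27 of 51 measured genes (52.9%, against 4.01% of all named genes) and higher in 2 (median change -0.35). Egr1, a zinc finger factor of the immediate early class, read 12.12 and 12.16 in curdlan, 7.48 and 7.44 with R406 and 11.14 and 11.35 in control (-4.68 ± 0.0792, adjusted p = 7.88e-05). Its relative Egr3 read 11.51 and 11.55 in curdlan, 7.51 and 7.61 with R406 and 8.23 and 8.37 in control (-3.97 ± 0.0702). Myc, which drives growth and ribosome production, read 12.14 and 12.13 in curdlan, 8.29 and 8.12 with R406 and 11.65 and 11.51 in control (-3.93 ± 0.0807). Egr1 and Myc had high signals in unstimulated cells, and most of the distance between curdlan and R406 lay below the control level; in Egr3 most of it lay above. The nuclear receptor gene Nr4a3 read 10.41 and 10.67 in curdlan, 6.87 and 6.95 with R406 and 7.03 and 7.10 in control (-3.63 ± 0.096). Nr4a2 of the same family read 11.57 and 11.81 in curdlan, 8.89 and 8.87 with R406 and 8.24 and 8.12 in control (-2.81 ± 0.0931). R406 thus left Nr4a2 above its control arrays and Nr4a3 just below them. Nr4a1 had a low signal in every group and a change of -0.26 ± 0.12 (adjusted p = 0.298).

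Further down the same list, Ier3, an early gene with roles in survival, had a change of -3.30 ± 0.0548, Junb, an AP-1 subunit, -1.79 ± 0.0462, and Srf, the factor that binds the CArG box, -1.17 ± 0.0509. Srf itself read 11.93 and 12.01 in curdlan, 10.79 and 10.81 with R406 and 11.22 and 11.26 in control. Fos and Jun, the classical AP-1 pair, moved less, at -0.75 ± 0.119 (adjusted p = 0.029) and -0.44 ± 0.0509 (adjusted p = 0.0127). Egr2, whose promoter is shown above, was lower by -2.18 ± 0.187 (adjusted p = 0.00614), a call that ended without R406 plus curdlan replicate 2 (adjusted p = 0.0575). The 2 higher members were Klf11, a repressor of the Kruppel-like family, at 0.77 ± 0.075 and the stress factor Atf3 at 0.68 ± 0.135 (adjusted p = 0.0499). Of the 27 lower members, 16 stayed called whichever single array was left out, and of the 2 higher members 0 did.

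Genes of MAP kinase feedback and regulation were called in both directions. Of 33 measured, 14 were lower (42.4%, against 4.01% of all named genes) and 5 higher (15.2%, against 5.17%), with a median of -0.16. The 14 include the kinase genes Map3k8, Map3k14, Mapk6 and Mapkapk2, beside inhibitors. A further Map3k14 probe set stood at -0.10 (adjusted p = 0.588). Dusp6, a cytoplasmic phosphatase that inactivates ERK, read 12.18 and 12.34 in curdlan, 8.24 and 8.32 with R406 and 11.65 and 11.61 in control (-3.98 ± 0.0706, adjusted p = 7.88e-05). The nuclear ERK phosphatase Dusp5 read 11.20 and 11.11 in curdlan, 8.25 and 8.18 with R406 and 9.78 and 9.81 in control (-2.93 ± 0.0557). Spry4, a Sprouty inhibitor of the step to ERK, read 9.51 and 9.59 in curdlan, 7.76 and 7.74 with R406 and 9.47 and 9.43 in control (-1.79 ± 0.0513). Spry4 read nearly the same with and without curdlan (curdlan minus control 0.10 ± 0.0513, adjusted p = 0.489) and was low only on the R406 arrays. Among the 5 that were higher, Dusp10, a phosphatase of p38 and JNK, read 9.38 and 9.37 in curdlan, 10.57 and 10.52 with R406 and 10.20 and 10.34 in control (1.17 ± 0.0635, adjusted p = 0.0021). Dusp14 had a change of 1.25 ± 0.1 and Dusp1, which acts on several MAP kinases, of 0.86 ± 0.0685. The others were Arrdc3, an arrestin-like adaptor, and the pseudokinase gene Trib2 at 0.64 ± 0.0555, whereas Trib1 of that family was lower at -0.88 ± 0.0944. Whichever array was left out, 6 of the 14 lower and 2 of the 5 higher genes kept their call, the latter being Dusp10 and Arrdc3. The calls of Dusp14, Dusp1 and Trib2 ended without either R406 plus curdlan array.

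The feedback of cytokine receptors was lower in 7 of 23 measured genes (30.4%, against 4.01% of all named genes) and higher in 3 (13%, against 5.17%). The median change was -0.01. Cish read 11.35 and 11.28 in curdlan, 7.47 and 7.47 with R406 and 9.16 and 9.11 in control (-3.85 ± 0.0505, adjusted p = 6.09e-05). Socs1, which inhibits JAK kinases, read 12.60 and 12.52 in curdlan, 9.34 and 9.31 with R406 and 11.20 and 11.00 in control (-3.24 ± 0.0782). Both lay below control on the R406 arrays. The STAT5-induced survival kinases Pim3 and Pim1 were lower at -1.34 ± 0.0674 and -1.19 ± 0.0461, and Socs3 at -1.06 ± 0.0722. In the other direction Bcl6, a repressor that opposes STAT targets, showed the largest rise of all named genes: it read 6.66 and 6.60 in curdlan, 9.49 and 9.32 with R406 and 7.15 and 7.30 in control (2.77 ± 0.0869, adjusted p = 0.000486). Pias3, an inhibitor of STAT3, was higher at 0.76 ± 0.0529. In the fits that left out 1 array, 5 of the 7 lower genes and 2 of the 3 higher ones, Bcl6 and Pias3, were called each time.

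Of 32 measured NF-kB subunits and targets, 5 were lower (15.6%, against 4.01% of all named genes) and 1 higher (3.12%, against 5.17%). The median change was -0.05. Nfkbiz, an inducible nuclear cofactor of NF-kB, read 10.12 and 10.23 in curdlan, 8.34 and 8.20 with R406 and 8.41 and 8.36 in control (-1.90 ± 0.073). Ptgs2, the inducible cyclooxygenase, read 12.18 and 12.29 in curdlan, 10.81 and 10.85 with R406 and 12.19 and 12.20 in control (-1.41 ± 0.0547). Icam1, an adhesion molecule, was lower at -0.86 ± 0.06, and the apoptosis inhibitor Birc3 at -0.79 ± 0.0648. These 4 calls held whichever array was left out. Nfkbia, the inhibitor that NF-kB itself induces, was lower by only -0.43 ± 0.044, and Tnip1, a restrainer of the pathway, was higher at 0.44 ± 0.058; neither call held without either R406 plus curdlan array.

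Of 47 measured genes of Syk and ITAM signalling, which lie between the receptor and these targets, 5 were lower (10.6%, against 4.01% of all named genes) and 4 higher (8.51%, against 5.17%), with a median of 0.00. Without R406 plus curdlan replicate 1 the counts were 2 lower and 0 higher, and without replicate 2 they were 1 and 0. The largest fall was in Sla, an adaptor that dampens antigen receptor signalling, which read 12.44 and 12.34 in curdlan, 11.11 and 11.11 with R406 and 11.94 and 11.89 in control (-1.28 ± 0.0552). Dok1, an inhibitory adaptor, was lower at -0.83 ± 0.0663 and Rasa2, a Ras inactivator, at -0.70 ± 0.0532, and Inpp5k, a lipid phosphatase, was higher at 0.57 ± 0.0466. Only the call of Sla among these 4 held whichever array was left out. The kinase gene Lyn (0.01 ± 0.0468) and the signalling chain Fcer1g (0.08 ± 0.0424) were not called. Of 36 calcium and NFAT genes 1 was called, Nfatc2, at -0.54 ± 0.0684 (not without either R406 plus curdlan array). Among 32 components of the PI3K, AKT and mTOR pathway 3 were higher (9.38%, against 5.17%) and 1 lower (3.12%, against 4.01%). Pik3ip1, an inhibitor of PI3 kinase, read 7.42 and 7.50 in curdlan, 8.71 and 8.72 with R406 and 8.27 and 8.27 in control (1.25 ± 0.0493, adjusted p = 0.000855).

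Receptors were called in both directions. Of 77 measured, 10 were higher (13%, against 5.17% of all named genes) and 6 lower (7.79%, against 4.01%), with a median of -0.03. Cxcr4, the receptor for the chemokine CXCL12, read 7.58 and 7.54 in curdlan, 9.03 and 9.09 with R406 and 8.61 and 8.84 in control (1.5 ± 0.0863). Ackr3, which also binds CXCL12, read 8.95 and 9.29 in curdlan, 10.93 and 10.88 with R406 and 9.74 and 9.77 in control (1.79 ± 0.116). Cx3cr1, the fractalkine receptor, read 7.50 and 7.53 in curdlan, 9.04 and 8.82 with R406 and 7.53 and 7.65 in control (1.41 ± 0.0894). On both R406 arrays all 3 chemokine-binding receptors were above the curdlan and the control arrays. The adenosine receptors moved apart: Adora2b was higher at 0.99 ± 0.063, with 9.13 and 9.11 in curdlan and 10.09 and 10.14 with R406, and Adora2a was lower at -0.87 ± 0.0526, with 11.17 and 11.20 in curdlan and 10.27 and 10.35 with R406. Tnfrsf12a, the receptor for TWEAK, was the most lowered of these 77 receptors at -1.93 ± 0.0645, and the ADP receptor P2ry1 was lower at -0.77 ± 0.0465. These 7 receptor calls held whichever array was left out.

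The group with the most large rises was that of FOXO targets and quiescence genes, of which 27 of 61 measured were higher and 4 lower (median 0.19). These shares were 44.3% and 6.56%, against 5.17% and 4.01% of all named genes. FOXO factors are kept out of the nucleus by AKT and switch on inhibitors of growth when growth factor signals fade. Ccng2, an atypical cyclin that slows the cell cycle, read 9.08 and 9.07 in curdlan, 11.51 and 11.48 with R406 and 10.88 and 11.04 in control (2.42 ± 0.0675, adjusted p = 0.000346). Ddit4, an inhibitor of mTORC1, read 7.83 and 7.59 in curdlan, 10.22 and 10.24 with R406 and 11.13 and 11.23 in control (2.52 ± 0.0911). Txnip, which limits glucose uptake, read 8.41 and 8.49 in curdlan, 10.63 and 10.58 with R406 and 8.71 and 8.67 in control (2.15 ± 0.0538). These 3 genes differ in where the control cells lay: above R406 for Ddit4, between the other groups for Ccng2, and near the curdlan level for Txnip. Hbp1, a repressor of cell cycle genes, read 9.46 and 9.51 in curdlan, 10.91 and 10.94 with R406 and 9.84 and 9.96 in control (1.44 ± 0.0609). Ypel3, linked to growth arrest, read 8.45 and 8.40 in curdlan, 10.02 and 10.03 with R406 and 8.48 and 8.53 in control (1.60 ± 0.0485). Klhl24, a substrate adaptor of a ubiquitin ligase, had a change of 1.52 ± 0.0824, Arrdc3 of 1.07 ± 0.0671, and Mxd1, a partner of MAX that opposes MYC, of 0.94 ± 0.0516. Its relatives Mxd4 and Mxd3 were both at 0.67. The factors themselves were called in different directions: Foxo1 was lower at -0.78 ± 0.0543, while Foxo3 was higher at 0.62 ± 0.0922 and Foxo4 at 0.27 ± 0.0515. The other 3 lower members were Gadd45a, Gadd45b and Cdkn1a. Of the 27 higher genes 16 held their call whichever array was left out; the call of Foxo1 ended without R406 plus curdlan replicate 2.

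Ubiquitin ligases and their adaptors were higher in 17 of 81 genes (21%, against 5.17% of all named genes) and lower in 0 (median 0.07). They were led by Klhl24 and Fbxl20, an F-box protein, at 1.42 ± 0.0685. A further Fbxl20 probe set stood at 0.24 (adjusted p = 0.179). Rnf103, a membrane ligase of the endoplasmic reticulum, was higher at 1.0 ± 0.0448 and Klhl6, an adaptor known from B cells, at 0.80 ± 0.0439. The count of higher members was 4 without either R406 plus curdlan array and 5 without either curdlan array. Autophagy and lysosome genes were higher in 15 of 61 (24.6%, against 5.17%) and lower in 2 (3.28%, against 4.01%), with a median of 0.11. Flcn, folliculin, a regulator of lysosomal nutrient signalling, read 9.82 and 9.93 in curdlan, 10.75 and 10.78 with R406 and 10.25 and 10.31 in control (0.89 ± 0.0592). Atg14, a subunit of the lipid kinase that starts autophagosomes, read 7.83 and 7.76 in curdlan, 8.69 and 8.55 with R406 and 8.16 and 8.09 in control (0.83 ± 0.0679). The initiating kinase Ulk1 was higher at 0.68 ± 0.0468, Wipi1 at 0.69 ± 0.0546 and the autophagy receptor Calcoco1 at 0.72 ± 0.0718. Rb1cc1, a partner of Ulk1, was called at 0.68 ± 0.106 by 1 probe set, and its other probe set stood at -0.03 (adjusted p = 0.88). The count of higher autophagy genes was 3 without R406 plus curdlan replicate 1 and 2 without replicate 2, the 2 that held in all fits being Flcn and Atg14. Tfeb, a transcription factor of lysosomal genes, had a change of -0.10 ± 0.0689 (adjusted p = 0.477).

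**Figure D2:**
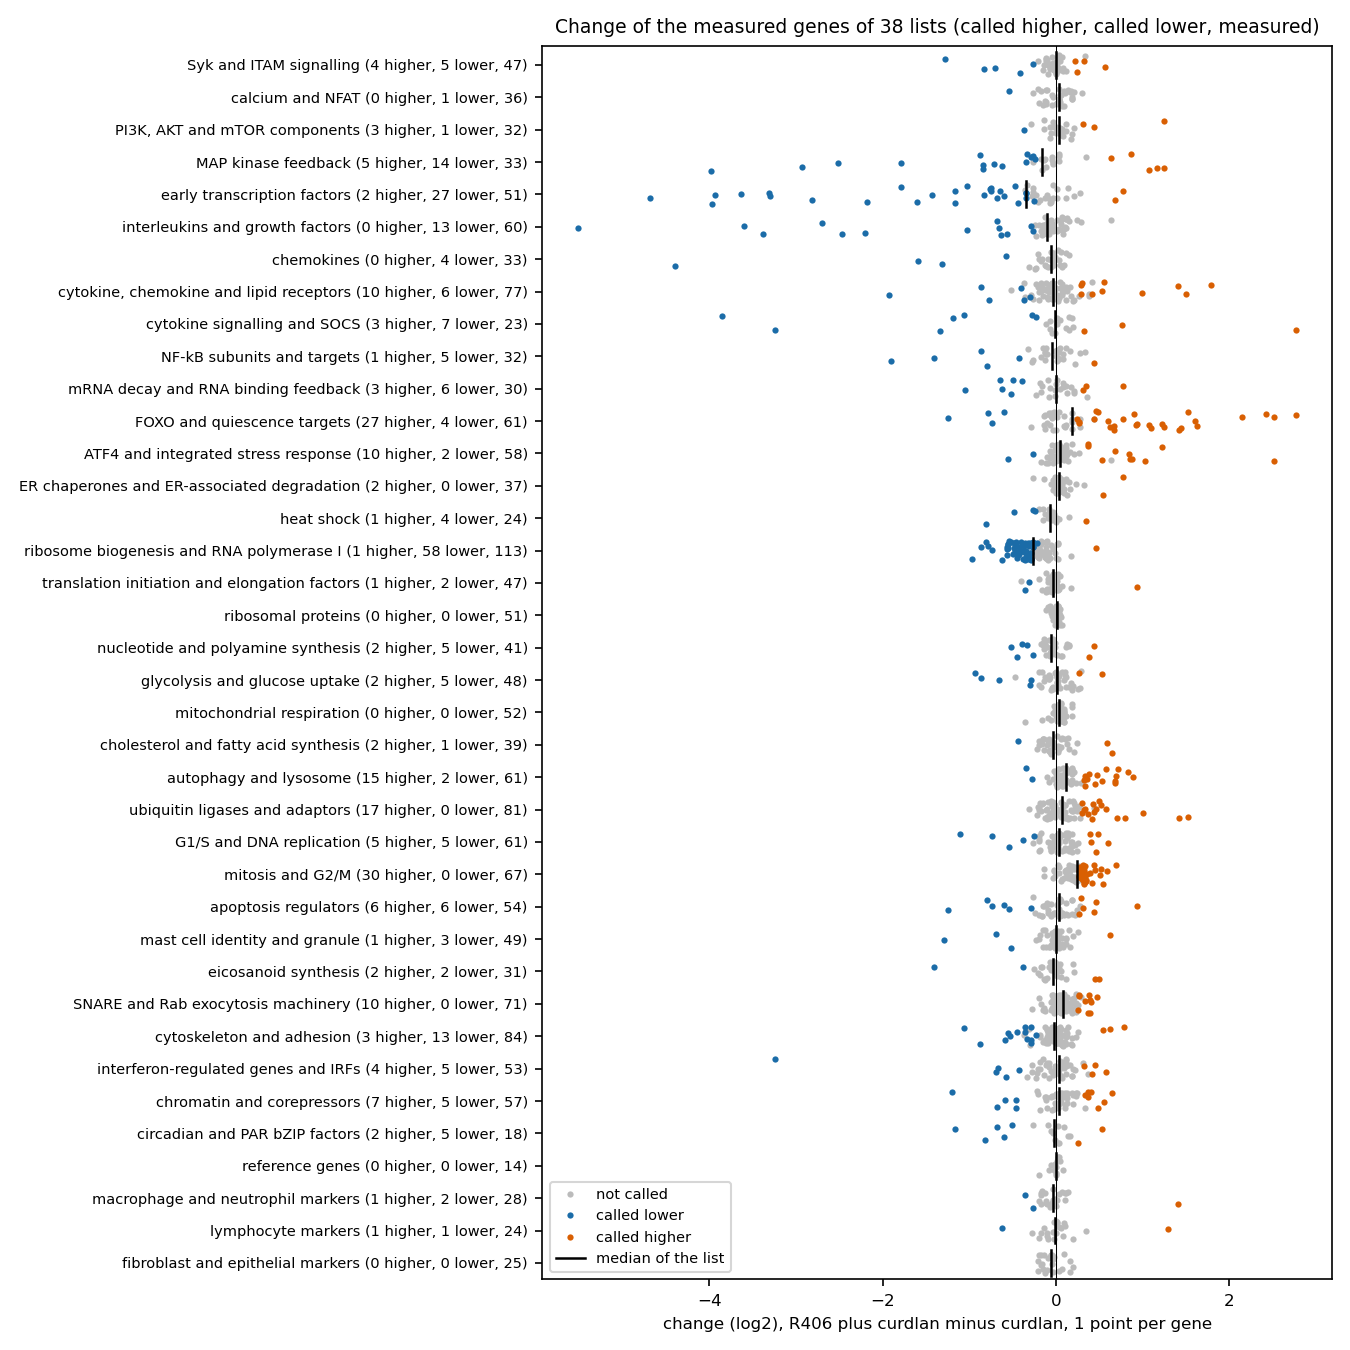
Change with R406 (R406 plus curdlan minus curdlan, log2; 1 point per measured gene, black bar the median) for 38 gene lists, with called genes in blue (lower) and orange (higher). The long tails to the left belong to early transcription factors, MAP kinase feedback, interleukins and cytokine feedback, that to the right to FOXO and quiescence targets, and ribosome biogenesis and mitosis appear as compact groups moved to the left and to the right.

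Genes of ribosome biogenesis and RNA polymerase I were lower by small amounts and in large number. Of 113 measured, 58 were called lower (51.3%, against 4.01% of all named genes) and 1 higher (0.885%, against 5.17%). Of the 113 changes, 106 were negative (median -0.27). Rrs1, a factor of the large subunit, read 9.38 and 9.25 in curdlan, 8.31 and 8.38 with R406 and 8.92 and 8.75 in control (-0.97 ± 0.0813). Polr1b, the second largest subunit of RNA polymerase I, read 11.62 and 11.66 in curdlan, 10.82 and 10.83 with R406 and 11.41 and 11.33 in control (-0.81 ± 0.0512, adjusted p = 0.00288). Wdr43, a factor of the small subunit, read 11.28 and 11.33 in curdlan, 10.57 and 10.56 with R406 and 11.08 and 11.04 in control (-0.74 ± 0.0478). In these 3 genes the R406 arrays lay below both other groups. Other polymerase I subunits were lower too, Polr1g at -0.86 ± 0.104, Polr1e at -0.57 ± 0.0649, Polr1f at -0.50 ± 0.0535 and the catalytic Polr1a at -0.37 ± 0.049, while Polr1c, Polr1d and Polr1h were not called. The abundant nucleolar proteins Ncl (-0.07 ± 0.0448), Npm1 (0.02 ± 0.0579) and Fbl (-0.10 ± 0.0446) were not called either. The member that was higher, Maf1, is the repressor of RNA polymerase III, and read 10.76 and 10.75 in curdlan, 11.23 and 11.21 with R406 and 10.80 and 10.80 in control (0.46 ± 0.043). The ribosomal proteins themselves did not follow: 0 of 51 were called (median 0.01). Of 47 translation factors 2 were lower (4.26%, against 4.01% of all named genes) and 1 was higher (2.13%, against 5.17%). The count of 58 rested on all arrays. It was 2 without either R406 plus curdlan array, those being Polr1b and Wdr43, 12 and 8 when curdlan replicate 1 or 2 was omitted, and 34 without either control array, with a median between -0.29 and -0.25 throughout these and the other fits.

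Mitotic genes showed the opposite shift. Of 67 measured genes of mitosis and the G2/M transition, 30 were called higher (44.8%, against 5.17% of all named genes) and 0 lower. In all, 61 changes were positive (median 0.24). Nusap1, a spindle protein, read 10.98 and 10.90 in curdlan, 11.65 and 11.61 with R406 and 11.00 and 10.96 in control (0.69 ± 0.0528, adjusted p = 0.00469). Cdc25b, a phosphatase that activates CDK1, read 11.03 and 11.03 in curdlan, 11.57 and 11.54 with R406 and 11.00 and 11.03 in control (0.52 ± 0.0445). Aurka, a centrosomal kinase, read 10.26 and 10.15 in curdlan, 10.75 and 10.69 with R406 and 10.17 and 10.15 in control (0.51 ± 0.0569). All 3 read alike in control and curdlan and were higher on the R406 arrays only. Depdc1b was higher at 0.59 ± 0.0446, the kinesin Kif18b at 0.54 ± 0.0428, the mitotic kinase Plk1 at 0.31 ± 0.0551 and Foxm1, the transcription factor of this programme, at 0.33 ± 0.046. Top2a (0.24 ± 0.0485, adjusted p = 0.0534), Ccnb1 (0.22 ± 0.0555, adjusted p = 0.0938) and Cdk1 (0.09 ± 0.0729, adjusted p = 0.544) were not called. The count of 30 was 0 without either R406 plus curdlan array, 5 and 4 when curdlan replicate 1 or 2 was omitted, and 17 without either control array, with a median between 0.24 and 0.26 throughout. Whether fewer or more cells were in mitosis cannot be told apart from a change in RNA per cell.

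**Figure D3:**
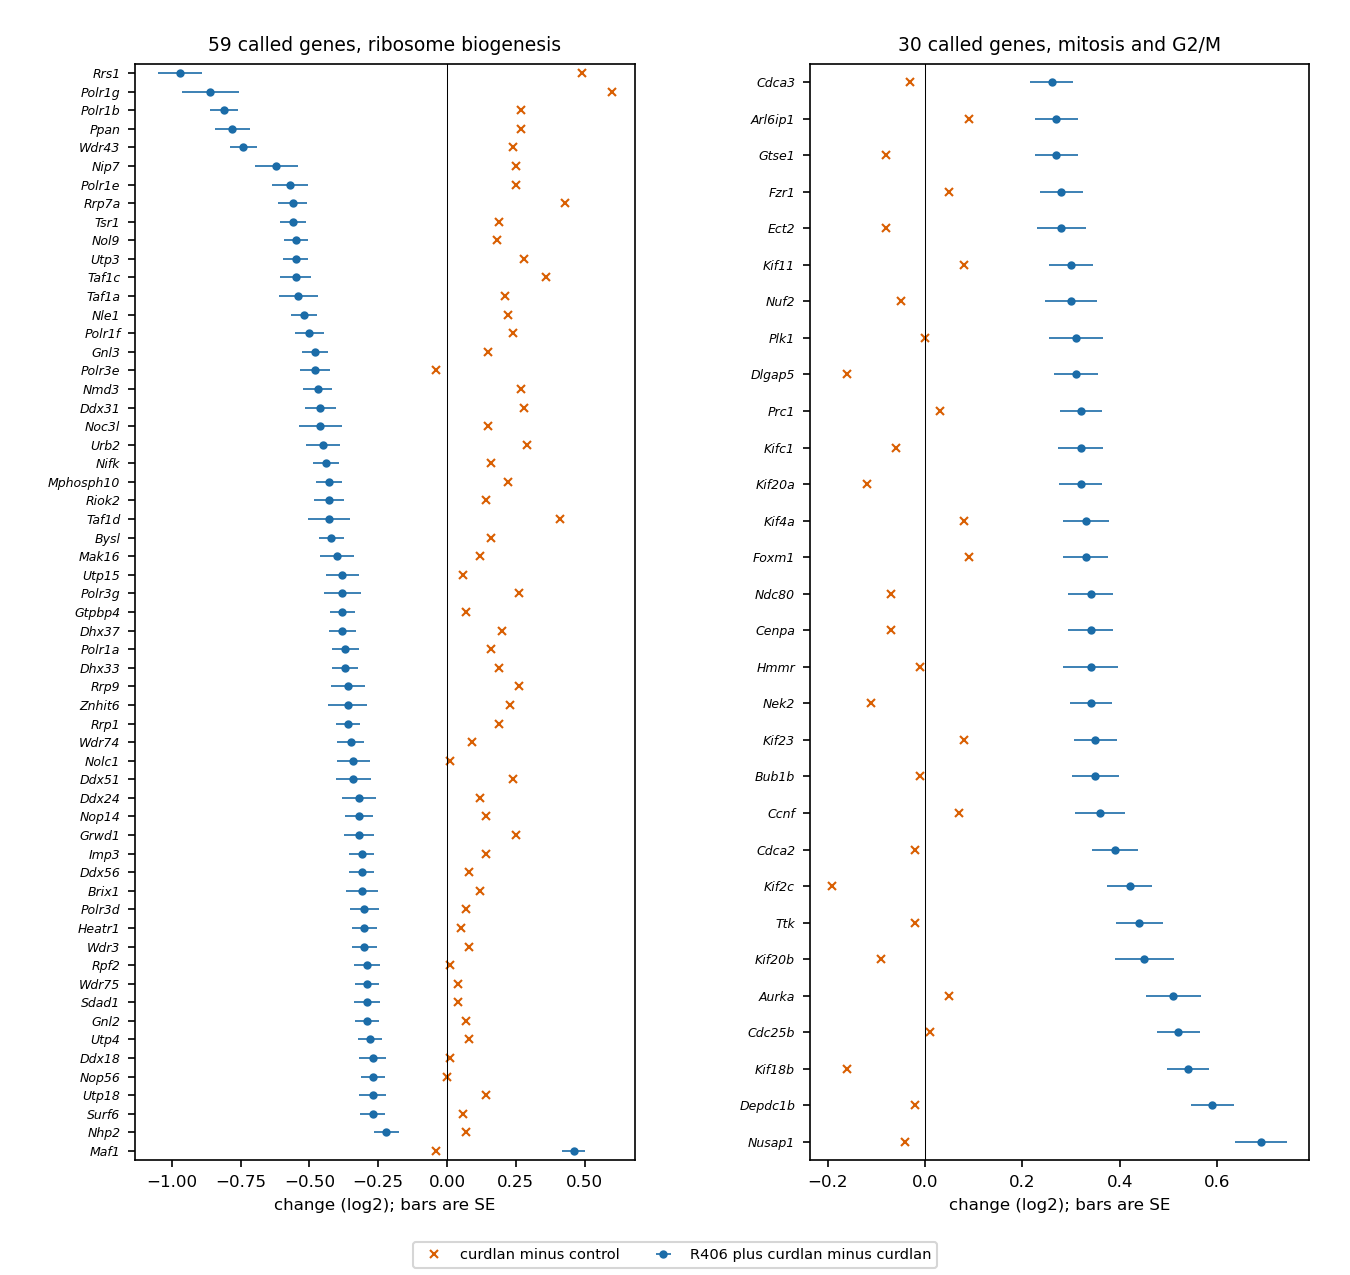
Change with R406 (blue points, log2, bars are SE) for the called genes of ribosome biogenesis (59 genes) and of mitosis and G2/M (30 genes), with the change from control to curdlan of the same gene as an orange cross. Of the ribosome genes only Maf1 lies to the right of 0 with R406, and the crosses of the mitotic genes lie near 0; both contrasts use the curdlan arrays, so the crosses and points are not independent.

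In the earlier part of the cycle, 5 of 61 genes of G1/S and replication were lower and 5 higher (8.2% each way, median 0.04), counts that were 1 and 0 without either R406 plus curdlan array. Over all named genes 4.01% were lower and 5.17% higher. Ccnd1, cyclin D1, read 9.28 and 9.35 in curdlan, 8.28 and 8.13 with R406 and 8.91 and 8.77 in control (-1.11 ± 0.0789). Cdc25a, the phosphatase that opens S phase, was lower at -0.54 ± 0.0429. The 5 that were higher included inhibitors of G1 progression, Cdkn1b (p27) at 0.60 ± 0.0508, the retinoblastoma relative Rbl2 at 0.49 ± 0.0497, Cdkn2c at 0.46 ± 0.0521 and Cdkn2b at 0.40 ± 0.0461. Cdkn1a (p21), in contrast, was lower at -0.74 ± 0.0697. Among these, the call of Ccnd1 held whichever array was left out, and the others did not hold without either R406 plus curdlan array.

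Of 58 genes of the ATF4 and integrated stress response, 10 were higher (17.2%, against 5.17% of all named genes). Another 2 were lower (3.45%, against 4.01%), and the median change was 0.05. Atf4, the factor that runs this response, read 11.07 and 11.02 in curdlan, 12.09 and 12.05 with R406 and 11.95 and 11.81 in control (1.03 ± 0.0639). Trib3, one of its targets, read 8.48 and 8.57 in curdlan, 9.77 and 9.72 with R406 and 10.98 and 10.86 in control. Chac1, which degrades glutathione, read 9.28 and 9.42 in curdlan, 10.22 and 10.17 with R406 and 11.06 and 11.18 in control (0.84 ± 0.0728). R406 brought Atf4 to its control level or slightly above, whereas Trib3 and Chac1 stayed between the curdlan and control arrays. Herpud1, of endoplasmic reticulum degradation, was higher at 0.88 ± 0.0462, and the amino acid transporter Slc1a5 was lower at -0.55 ± 0.0488. Without either R406 plus curdlan array 4 of the 10 higher genes were called. Heat shock genes were lower in 4 of 24 and higher in 1, led by the cochaperone Bag2 at -0.81 ± 0.0605, whose call ended without R406 plus curdlan replicate 1. Without that array 0 heat shock genes were lower, and without replicate 2 of that group 1 was.

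Of 48 glycolysis and glucose uptake genes, 5 were lower (10.4%, against 4.01% of all named genes) and 2 higher (4.17%, against 5.17%), and without either R406 plus curdlan array these counts were 2 and 0. They were led by Hk2, a hexokinase, at -0.93 ± 0.0645 and Pfkfb3, which makes the activator of phosphofructokinase, at -0.86 ± 0.0553 (both held in each fit that left out 1 array). Of 52 genes of mitochondrial respiration 0 were called (median 0.04). Of 39 of cholesterol and fatty acid synthesis 2 were higher (5.13%) and 1 lower (2.56%), near the shares of all named genes. Apoptosis regulators were called 6 in each direction of 54 (11.1% each way, against 4.01% lower and 5.17% higher of all named genes). The 6 higher became 0 without any 1 of the curdlan or R406 plus curdlan arrays, and the 6 lower became 2 or 3. Gadd45a, a stress gene, was lower at -1.25 ± 0.0487 and the survival gene Bcl2l1 at -0.54 ± 0.0888. Bcl2l11, the killer BIM, was higher at 0.46 ± 0.0729, and Pdcd4, which restrains translation, at 0.94 ± 0.103. Of these 4 only the call of Gadd45a held without either R406 plus curdlan array.

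Of 49 mast cell identity and granule genes, 1 was higher (2.04%, against 5.17% of all named genes) and 3 were lower (6.12%, against 4.01%), shares near the background, with a median of 0.00. Without either R406 plus curdlan array 1 was lower and 0 were higher. Cd200r1, an inhibitory receptor of mast cells, read 11.81 and 11.89 in curdlan, 10.52 and 10.61 with R406 and 11.45 and 11.50 in control (-1.29 ± 0.0596). Tph1, which starts serotonin synthesis, read 7.08 and 7.18 in curdlan, 6.44 and 6.43 with R406 and 6.31 and 6.50 in control (-0.69 ± 0.0792). The histamine enzyme Hdc (-0.15 ± 0.0449), the IgE receptor chain Fcer1a (-0.05 ± 0.0457) and Kit (0.16 ± 0.062) were not called. The secretion machinery of SNARE and Rab proteins was higher in 10 of 71 and lower in 0 (median 0.08), all by small amounts, with Stxbp3 at 0.47 ± 0.0462 and Stx11 at 0.39 ± 0.0518. That count was 0 without either R406 plus curdlan array and 0 and 1 without the curdlan arrays. Cytoskeleton and adhesion genes were lower in 13 of 84 and higher in 3, led by the urokinase receptor Plaur at -1.06 ± 0.0536, whose call held whichever array was left out. Without either R406 plus curdlan array 2 of the 13 were called. Of the 57 chromatin genes 5 were lower and 7 higher (2 and 0 without either R406 plus curdlan array), with the histone demethylase Kdm6b at -1.20 ± 0.0489 (8.61 and 8.65 with R406, against 9.80 and 9.86 in curdlan and 9.51 and 9.52 in control) and the methyltransferase Ezh1 at 0.55 ± 0.043 (not without either R406 plus curdlan array). Genes of mRNA decay were lower in 6 of 30 and higher in 3, interferon-regulated genes lower in 5 of 53 and higher in 4, and circadian genes lower in 5 of 18 and higher in 2. Over all named genes 4.01% were lower and 5.17% higher. Without either R406 plus curdlan array 1 mRNA decay gene and 1 interferon-regulated gene were lower, and 1 or 2 circadian genes. In those fits 0 interferon-regulated and 0 circadian genes were higher, and 0 or 1 of mRNA decay. Among them Cpeb4, a binder of mRNA tails, was lower at -1.05 ± 0.089 and the clock gene Per2 at -0.82 ± 0.0615 (not without R406 plus curdlan replicate 1). Of 14 reference genes 0 were called, with changes between -0.19 and 0.08.

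**Figure D4:**
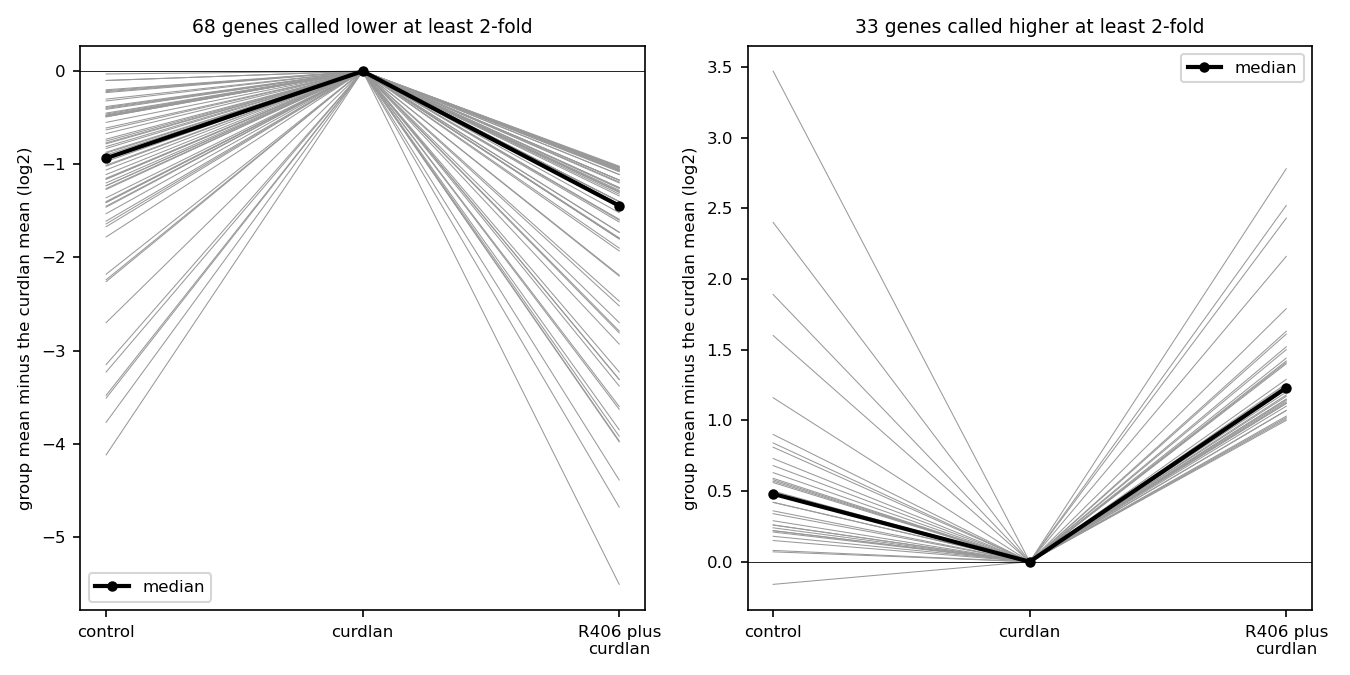
Group means relative to the curdlan mean (log2) for the 68 genes called lower at least 2-fold (left) and the 33 called higher at least 2-fold (right); each grey line is a gene and the black line the median. All lines meet at 0 in curdlan by construction, and the control ends spread from near the curdlan level to beyond the R406 level.

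Setting the control arrays beside the other groups divides the changed genes by level, as description only, since these contrasts share arrays. Over the probe sets lowered at least 2-fold the median signal was 9.15 in control, 10.10 in curdlan and 8.42 with R406, and over those raised at least 2-fold it was 8.11, 7.59 and 9.0. Many genes described above, such as Il13, Nr4a3 and Egr1, read higher in curdlan than in control and lower with R406. Cxcr4 and Atf4 went the other way, lower in curdlan than in control and higher with R406. Such genes were not counted as a kind, and 2 other kinds are described here. A first kind had a curdlan mean within 0.25 log2 units of the control mean and differed on the R406 arrays. Among the lowered genes these were led by Spry4, Ptgs2, Gadd45a, the serotonin receptor gene Htr2a and the clock-linked repressor gene Bhlhe40. Bhlhe40 was one of the brightest called genes, at 13.56 and 13.54 in curdlan, 12.36 and 12.41 with R406 and 13.31 and 13.33 in control (-1.16 ± 0.0451). Among the raised genes they were led by Txnip, Tcp11l2, Ypel3, Fbxl20 and Cx3cr1. Pink1, a kinase of mitochondrial quality control, also belonged here, at 8.59 and 8.47 in curdlan, 9.55 and 9.47 with R406 and 8.57 and 8.64 in control (0.98 ± 0.0648).

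A second kind moved on in the direction that curdlan had taken, and only 3 named genes were called in both contrasts that way. Vegfa, the angiogenic growth factor, read 11.79 and 11.81 in control, 11.08 and 11.09 in curdlan and 10.82 and 10.83 with R406 (-0.26 ± 0.0428, adjusted p = 0.0318). Bcl2, a survival gene, read 11.28 and 11.30 in control, 10.81 and 10.92 in curdlan and 10.57 and 10.57 with R406 (-0.29 ± 0.0558, adjusted p = 0.045). Tp53inp1, a target of p53, read 11.42 and 11.45 in control, 11.91 and 11.85 in curdlan and 12.18 and 12.16 with R406 (0.29 ± 0.0488, adjusted p = 0.0328). The steps with R406 were small, and none of these 3 calls held when any 1 array was left out.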

How the data were processed

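Transcript levels were measured on 6 Affymetrix whole-transcript rat arrays, 2 per group. The deposited values are log2 signals per probe set that, per the submitters' processing notes, the authors made with Affymetrix Expression Console. Its version, summarisation and normalization are not stated in the sources used here, and the log base was inferred from the range of the values. A normalization that equalises arrays removes changes shared by most transcripts. The table held 29214 probe sets and 0 columns of other samples. The platform annotation gave 1 symbol for 15310, several for 323 and none for 13581. No value was filtered or normalized again.

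All 6 arrays were fitted in 1 limma model (R 4.3.3, limma 3.58.1; lmFit, eBayes; 3 residual and 2.16 prior degrees of freedom), two-sided, with Benjamini-Hochberg adjustment over all probe sets. The script was tested on simulated data. The labels do not say whether arrays with the same replicate number belong together, and the main fit did not pair them. Depth does not apply to arrays, and their number limits the precision.

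A gene was represented by its probe set with the highest mean signal. Genes were named by rule: the 30 largest called changes per direction, up to 6 called members per list and direction, the 12 per direction with a curdlan mean within 0.25 of control, genes called alike in both contrasts, the 6 brightest called per direction, and a fixed set; others were named after their values were seen. The 38 lists (1711 measured genes) overlap, and members and lists were chosen with earlier results of these data known. Of 46 further probe sets of called named genes, 30 had the same call, 16 were not called and 0 were opposite. Promoters came from RefSeq (GRCr8) and were matched by gene ID. Alternatives covered the arrays in the fit, normalization, filter, spread model, threshold, replicate block, omitted arrays and choice of probe set.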

Additional observations from a re-analysis of the deposited data

How the results depend on the processing

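Of the 253 named genes called, 0 changed direction under any alternative that kept the same probe set. Since no called probe set had overlapping arrays, only the changes of normalization could have reversed a direction. For the other alternatives this outcome was fixed in advance. With only the brighter probe sets fitted, 242 of the 253 had a value. The choice of probe set was varied for the list counts only, and the other probe set of Rb1cc1 stood at -0.03 against 0.68. Calls were kept by 246 with quantile normalization, 241 with arrays centred on their median, 252 with an intensity trend, 205 with the 4 arrays of the comparison alone and 196 with the replicate block; 94 kept the call whichever array was left out. The count of called probe sets (2118; 1173 higher, 945 lower) was 2070 with quantile normalization and 2061 after centring. It was 1232 (622 higher, 610 lower) with the 4 arrays alone, 3717 (2234 and 1483) when only the brighter probe sets, above the median, were fitted, 3767 (2248 and 1519) with an intensity trend, 561 (260 and 301) at an adjusted p under 0.01 and 170 (59 and 111) with a change of at least 2-fold. Leaving out 1 array gave 210 to 1232 probe sets (81 to 622 higher, 129 to 610 lower); the lone array left in a group was then assumed to vary like the others. With the replicate block it was 1129 (587 and 542). Deviations of arrays with the same number correlated at -0.115 (control and curdlan), -0.00454 (control and R406 plus curdlan) and 0.113 (curdlan and R406 plus curdlan), so the pairing was not used. Of 76 counts over lists and directions, 72 stayed within 1.5 times with quantile normalization, 69 after centring, 51 with the block and 21 without either R406 plus curdlan array. With 2 arrays per group, small changes such as those of ribosome and mitosis genes are at the limit of what the fit can call. The cause of these differences was not tested.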

Other observations

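Of the genes in this paragraph, Gpr183, Klrb1c, Olr1 and Gfi1b were named by the rule of the 30 largest changes per direction. The others were chosen after their values were seen. The genes here that were lowered at least 2-fold lay outside the lists. Several encode surface receptors: Gpr183, a receptor for oxysterols, read 12.46 and 12.40 in curdlan, 10.64 and 10.62 in R406 plus curdlan and 10.97 and 10.98 in control (change -1.80 ± 0.0477). Klrb1c and Klrk1, C-type lectin-like receptors known from natural killer cells, had changes of -2.79 ± 0.0836 and -1.40 ± 0.0803, and Olr1, a receptor for oxidised lipoprotein, of -1.61 ± 0.119. Ahr, the aryl hydrocarbon receptor, read 11.68 and 11.75 in curdlan, 10.15 and 10.25 with R406 and 11.24 and 11.22 in control (-1.52 ± 0.0564). The sulfotransferase genes Hs3st1, which acts on heparan sulfate, and Chst1 were lower at -1.27 ± 0.0457 and -1.30 ± 0.0675, and the haematopoietic transcription factor gene Runx3 at -1.06 ± 0.0592. Among raised genes, Gfi1b, a transcriptional repressor of blood cells, read 9.98 and 9.88 in curdlan, 11.14 and 11.01 with R406 and 10.56 and 10.46 in control (1.15 ± 0.0729).

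Of 80 probe sets annotated to the vomeronasal type 2 receptor family, a set chosen after its values were seen, 10 were called lower (12.5%, against 3.23% of all probe sets) and 0 higher. The family holds near-identical copies, and 7 of the 10 carry several symbols, so the gene is uncertain. Among the called probe sets, only 10701668 kept its call whichever array was left out. Probe set 10701668 read 7.31 and 7.21 in control, 9.45 and 9.75 in curdlan and 7.53 and 7.62 with R406 (-2.02 ± 0.113, limma, Benjamini-Hochberg adjusted p = 0.00219). What these probes detect was not tested.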
